A study of Mus musculus with 8 samples.

Results

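The response to a high-fat diet (HFD) that the 2 main fat depots of the mouse had in common was measured in adipose precursors (APs), the cells of fat tissue from which adipocytes form. All 8 arrays of the series entered the comparison. The 4 HFD arrays, 2 of subcutaneous APs (scAPs, from inguinal fat) and 2 of visceral APs (viAPs, from perigonadal fat), were set against the 4 arrays of mice on standard diet (SD), again 2 of scAPs and 2 of viAPs, with depot as a covariate. The mice were wild-type C57BL/6J males, 7 to 8 weeks old, fed either diet for 3 days with no other treatment, with the RNA of 3 mice in the pool of each array. APs were enriched with beads that removed cells carrying CD45 or CD31 and then held cells carrying SCA-1, so the pools were enriched by surface proteins and were not a single cell type. Of the 35556 probe sets (groups of probes for a single transcript) in the deposited table, the 21789 with exactly 1 gene symbol were tested, for 19938 genes. Levels below are log2 of the deposited intensity, and a difference of 1 between levels is a 2-fold change.

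A probe set was called at a Benjamini-Hochberg adjusted p under 0.05 and a pooled change of at least 2-fold. It was counted as shared when, in addition, both HFD arrays lay on the same side of both SD arrays in each depot and the change was at least 1.5-fold in each depot. Whether the scAP and viAP pools of a diet came from the same mice is not given in the sources used here, and the fit treated the 8 arrays as independent. The p-values measure the spread between pools of mice, and the small number of arrays limits how precise they are.

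Cholesterol is built from acetyl-CoA through the mevalonate pathway, and most enzymes of that pathway are transcribed under SREBP2, a membrane-bound factor that is released when sterols in the endoplasmic reticulum run low and is held back by the INSIG proteins. Heme oxygenase 1, the product of Hmox1, opens the heme ring and releases iron, carbon monoxide and biliverdin. It is a classic target of the stress factor NRF2. APs are fibroblast-like cells that also build the collagen and laminin scaffold of fat tissue and divide early in diet-induced fat expansion.

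The enzymes of sterol synthesis stood out among the genes raised in both depots, so the promoters of 4 of them and of their regulator Insig1 are shown. The sequences are the 250 bases before the annotated start in RefSeq (GRCm38.p6), written 5′ to 3′ on the strand of the gene. Capitals mark CCAAT boxes (CCAAT, read on both strands, so that ATTGG is the reverse form), the letters to which NF-Y binds, and the sterol regulatory element TCACNCCAC, also read on both strands. The 2 motifs did not overlap in these windows.
Hmgcs1, chr13:119690101-119690350, forward strand: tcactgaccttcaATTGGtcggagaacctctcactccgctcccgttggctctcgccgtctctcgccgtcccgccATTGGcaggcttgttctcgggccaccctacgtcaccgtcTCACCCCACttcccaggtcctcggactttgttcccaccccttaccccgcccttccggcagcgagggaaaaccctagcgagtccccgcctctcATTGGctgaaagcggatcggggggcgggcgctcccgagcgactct
Idi1, chr13:8885356-8885605, forward strand: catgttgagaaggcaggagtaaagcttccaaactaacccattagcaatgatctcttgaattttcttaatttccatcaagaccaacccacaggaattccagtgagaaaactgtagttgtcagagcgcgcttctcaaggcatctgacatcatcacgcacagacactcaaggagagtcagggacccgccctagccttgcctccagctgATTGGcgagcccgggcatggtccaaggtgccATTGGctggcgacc
Cyp51, chr5:4104698-4104947, reverse strand: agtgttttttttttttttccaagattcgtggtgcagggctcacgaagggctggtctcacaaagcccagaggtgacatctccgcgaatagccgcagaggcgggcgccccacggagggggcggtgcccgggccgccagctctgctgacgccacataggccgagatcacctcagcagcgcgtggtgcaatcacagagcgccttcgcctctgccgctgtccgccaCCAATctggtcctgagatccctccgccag
Msmo1, chr8:64733579-64733828, reverse strand: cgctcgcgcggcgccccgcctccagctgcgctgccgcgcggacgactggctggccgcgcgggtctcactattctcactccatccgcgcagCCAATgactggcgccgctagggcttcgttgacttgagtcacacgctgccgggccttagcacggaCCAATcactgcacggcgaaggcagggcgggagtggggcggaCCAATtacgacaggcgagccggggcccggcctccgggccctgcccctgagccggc
Insig1, chr5:28071162-28071411, forward strand: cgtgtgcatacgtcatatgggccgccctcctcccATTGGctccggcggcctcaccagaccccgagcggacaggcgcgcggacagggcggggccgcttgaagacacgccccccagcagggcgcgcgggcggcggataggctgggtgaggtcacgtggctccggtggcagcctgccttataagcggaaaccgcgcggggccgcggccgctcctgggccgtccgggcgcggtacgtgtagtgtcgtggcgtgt

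All 14 genes of the sterol synthesis list with a promoter in the reference held at least 1 CCAAT box in this window, against 38.8% of the 15563 tested genes with a promoter. Counted by promoter, the share was 82.4% (14 of 17), against 34.6% of 19116. The sterol regulatory element in the spelling used here was found in 1 of those 17 promoters, that of Hmgcs1, against 1.0% of all. Of the 149 genes shared and higher, 102 had a promoter in the reference. Of their 131 promoters, 34.4% held a CCAAT box and 2.29% (3 promoters, of Hmgcs1, Adamts1 and Mapk6) the sterol element, and 10.7% held the E-box CACGTG against 7.0% of all promoters. These matches are a description of letters in the windows. Sqle, Fdps, Fdft1 and Hmox1 had no promoter entry in the reference.

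The cells carried the markers of fibroblast-like APs. Decorin (Dcn) had levels of 13.64 to 13.79 on the 8 arrays, and Pdgfra, the receptor used to define these cells, had levels of 11.01 to 11.56. The Ly6a gene, which codes for SCA-1, was not analysed here. On the array labelled SD viAP replicate 4 the depot genes had scAP-like levels. Wt1, a transcription factor of visceral fat, was at 5.98 there, against 8.71, 8.94 and 9.09 on the other viAP arrays and 5.88 to 6.51 on the scAP arrays. The counts of called and shared probe sets are therefore also given without it, and the counts of the pathway lists where its removal moved them by more than 1.5 times. The upper part of the intensity distribution was higher on the HFD arrays, with an upper quartile of 7.42 to 7.49 against 7.22 to 7.38 on the SD arrays. The 7315 probe sets with a level above 7 on at least 3 arrays had a median pooled change of 0.24, while the median change of all probe sets was -0.03. A second quantile normalization, which makes the arrays' distributions equal, brought the median of those 7315 to 0.00412.

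Markers of other cell types were followed beside the results. The summed intensity of 34 endothelial markers was 3201 to 3454 on the SD arrays, 3590 and 3850 on the HFD viAP arrays, and 5946 and 6251 on the HFD scAP arrays. The sum weighs bright genes most. The mean log2 level of these markers was 6.08 and 6.14 on the SD viAP arrays and 6.05 and 5.90 on the HFD viAP arrays. Their median change was -0.19 in viAPs and 0.75 in scAPs. Of these markers 5 were higher at an adjusted p under 0.05 (14.7%, against 11.5% of all genes), Eng, S1pr1, Sele, Erg and Tek, and 0 lower. The count higher was 3 without either SD scAP array and 2 without HFD viAP replicate 5, HFD scAP replicate 7 or HFD scAP replicate 8. Kdr and Cdh5, which define endothelium, had levels of 7.61 and 7.67 and of 8.88 and 8.74 on the HFD scAP arrays, and of 5.46 to 6.25 and 5.46 to 7.01 on the other 6. The 16 mature adipocyte markers summed to 4929 to 6382 on the SD arrays, 5748 and 5916 on the HFD scAP arrays, and 3511 and 3702 on the HFD viAP arrays. The 18 macrophage and myeloid markers summed to 721 to 908 over all arrays, and 16 of them had a level above 7 on no array. Of the red cell markers 4 were measured, which summed to 147 to 187 and had a level above 7 on no array. The hemoglobin genes were not among the probe sets analysed here. The study lists 2 of them, Hba-a2 and Hbb-bs, among the genes raised by HFD in scAPs. In these pools fewer cells of a type and less RNA per cell cannot be told apart. The part of these cells in the results was not tested. With the endothelial marker level as a further covariate, 9 of the sterol synthesis genes described below were higher instead of 12, 3 of the heme and iron genes instead of 5, 4 of the ERK genes instead of 7, 2 of the adipogenic transcription factors instead of 5, 26 of the mitosis genes instead of 20 and 4 of the replication genes instead of 2. Of the genes of fatty acid oxidation 4 were lower instead of 2, and of the complement genes 1 instead of 3, of the chemokines 1 instead of 2 and of the cytokine genes 1 instead of 2.

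**Figure D1:**
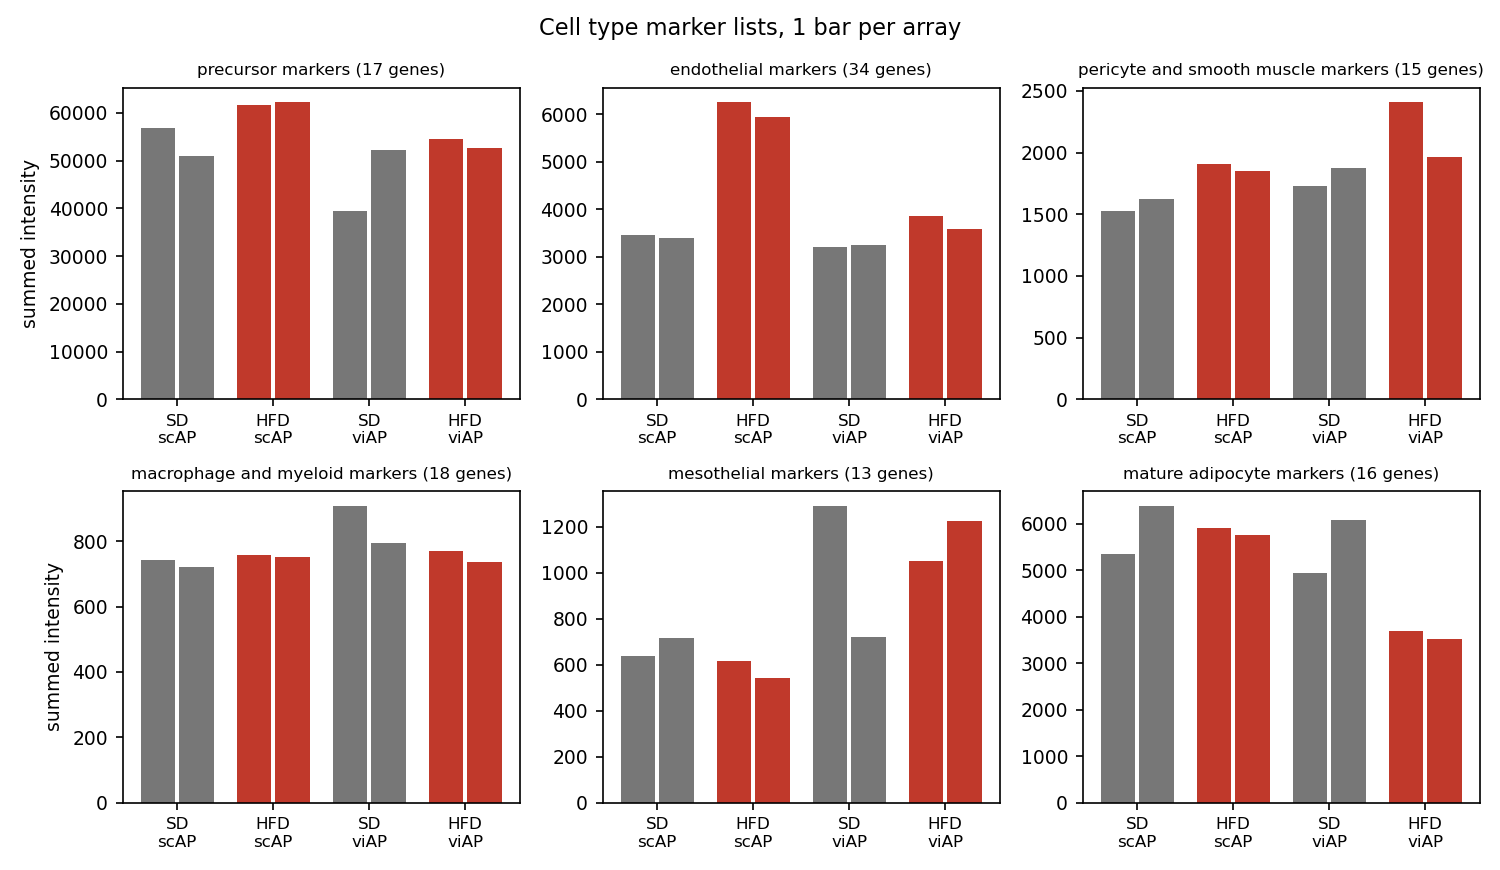
Summed intensity (linear, y axis) of 6 cell type marker lists on each array, 1 bar per array, grey for SD and red for HFD. The endothelial sum was 5946 and 6251 on the HFD scAP arrays and 3201 to 3850 on the others, and the mesothelial sum was 721 on the array labelled SD viAP replicate 4 against 1052 to 1292 on the other viAP arrays.

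More probe sets were called higher than lower after HFD. Over both depots 166 probe sets were called higher, 0.762% of those tested, and 19 were called lower, 0.0872%. Of these, 152 higher probe sets (149 genes) and 18 lower ones (18 genes) were shared. Without a minimum fold, 2497 probe sets were higher and 1134 lower at an adjusted p under 0.05, and 1004 and 834 after the second quantile normalization. Without SD viAP replicate 4 the counts of shared probe sets were 120 and 13, and all 152 shared higher probe sets still had an adjusted p under 0.05. The split moved with the scaling: after the second quantile normalization 67 probe sets were called higher and 40 lower, so that 62.6% of calls were higher, against 89.7% in the deposited values. All 152 shared higher probe sets kept a positive change under that scaling, 144 of them with an adjusted p under 0.05, and 51 of them met the full criteria. The 18 shared lower probe sets kept a negative change. Both sets had been chosen for a pooled change of at least 2-fold, so a kept sign was largely set by that choice.

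Leaving out single arrays moved the counts. Without SD scAP replicate 1, 257 probe sets were called higher. Without SD viAP replicate 3, 36 were called lower and 34 were shared and lower, and without HFD viAP replicate 6, 12 were called lower. With the endothelial marker level as a further covariate 376 were called higher and 39 lower, and 137 of the 152 and 13 of the 18 shared probe sets were still shared.

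**Figure D2:**
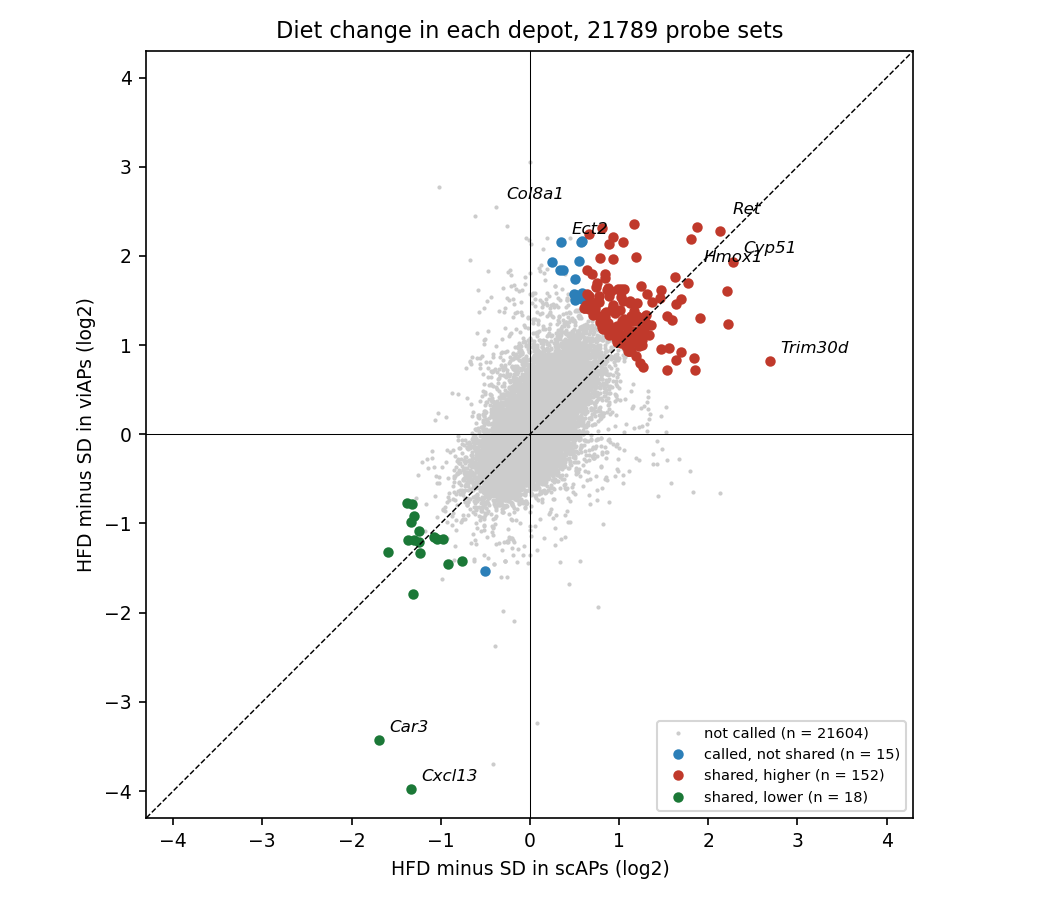
HFD minus SD in scAPs (x axis, log2) against viAPs (y axis, log2) for each of 21789 probe sets, coloured by the pooled call, with the line of equal change dashed. The 152 shared higher probe sets lie in the upper right and the 18 shared lower ones in the lower left, while Col8a1, which was not called, had a change of 2.55 in viAPs and -0.38 in scAPs.

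The shared criteria ask for a change of at least 1.5-fold in each depot. A like size of the depots' changes among these genes was therefore partly set by the choice, and equal changes were not shown. Over all probe sets the Pearson correlation of the viAP and scAP changes was 0.59. For the 152 higher probe sets the median was 1.30 (viAPs) against 1.02 (scAPs), and for the 18 lower ones -1.19 against -1.30. Among the 170, the viAP change was the larger for 120 and the scAP change for 50. The 95% interval of the difference between the depots' changes included 0 for 131 of the 170 and had a median half-width of 0.64, and it lay within 1 log2 unit either way for 77. Taken alone, the viAP comparison gave an adjusted p under 0.05 to 150 of the 170 and the scAP comparison to 85. At a stricter 2-fold in each depot, 61 higher and 11 lower probe sets were shared. Both HFD arrays lay above both SD arrays in each depot for 14.9% of all probe sets and below them for 10.7%.

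Hmox1 was among the 5 genes with the largest smaller-of-both-depots change. Its level was 9.48 and 9.86 in SD scAPs and 11.54 and 11.42 in HFD scAPs, and 9.29 and 9.75 in SD viAPs and 11.59 and 11.84 in HFD viAPs. All 4 HFD arrays lay above all 4 SD arrays. The pooled change was 2.00 (standard error, SE, 0.15, adjusted p = 0.000388 from limma), with 1.81 in scAPs and 2.19 in viAPs, and the interval of the depot difference ran from -0.25 to 1.02. Leaving out any single array left a change of 1.87 to 2.12.

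Ret, the receptor tyrosine kinase for the GDNF family of growth factors, had the largest change of the shared genes that rose. Its level was 6.19 and 6.00 in SD scAPs and 8.55 and 7.90 in HFD scAPs, and 6.86 and 6.49 in SD viAPs and 8.93 and 8.98 in HFD viAPs. The gene thus passed from among the dim probe sets of the array to a clear signal in both depots. The pooled change was 2.21 (SE 0.15, adjusted p = 0.000388 from limma), and the interval of the depot difference ran from -0.56 to 0.86.

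**Figure D3:**
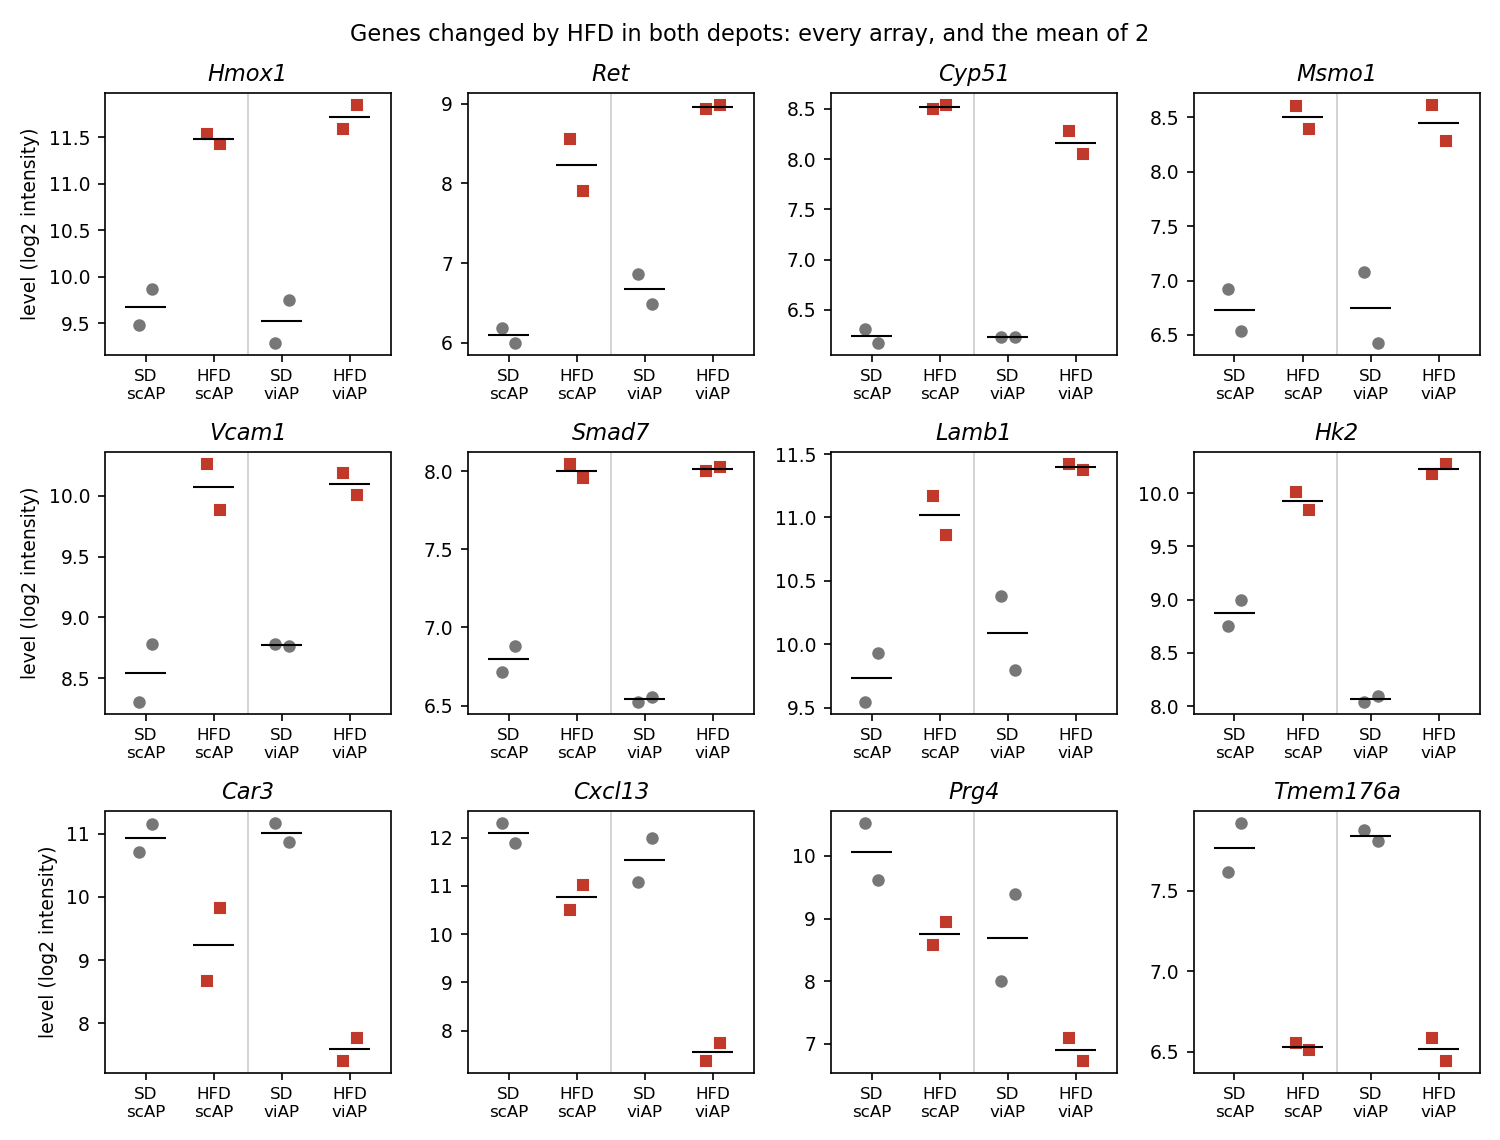
Level (y axis, log2 intensity, a separate scale for each gene) of 12 called genes on each array, grey circles for SD and red squares for HFD, with a bar at the mean of the 2 arrays. In each of the 12 panels both HFD arrays lie on 1 side of both SD arrays in each depot, above them for the 8 genes that rose and below them for the 4 that fell.

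Most of the measured enzymes of sterol synthesis rose. Of 17 enzymes measured, 12 rose at an adjusted p under 0.05 and 0 fell, against 11.5% of all genes higher and 5.27% lower. The share was 70.6%, against 29.9% of the 6610 genes above the level of 7. The median change of the list was 0.86, with 0.75 in viAPs and 0.87 in scAPs, against 0.25 for those 6610 genes, and it was 0.79 after the second quantile normalization, with 10 members higher. Without SD viAP replicate 4, 10 rose.

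Cyp51, lanosterol 14-alpha-demethylase, was at 6.30 and 6.17 in SD scAPs and 8.50 and 8.54 in HFD scAPs, and at 6.23 on both SD viAP arrays and 8.28 and 8.05 in HFD viAPs. The SD arrays of both depots were thus alike, and the HFD arrays lay well above them. Its pooled change of 2.11 (SE 0.11) had the smallest adjusted p of all probe sets tested, 5.82e-05 from limma. Msmo1, a methylsterol oxidase that acts after Cyp51, was at 6.92 and 6.54 in SD scAPs, 8.61 and 8.39 in HFD scAPs, 7.08 and 6.43 in SD viAPs and 8.61 and 8.29 in HFD viAPs. It rose by 1.73 (SE 0.16, adjusted p = 0.000989 from limma).

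Hmgcs1, which makes HMG-CoA at the entry to the pathway and whose promoter above holds both motifs, was at 8.11 and 8.30 in SD scAPs, 9.96 and 9.65 in HFD scAPs, 8.20 and 7.79 in SD viAPs and 9.29 and 9.27 in HFD viAPs. It rose by 1.44 (SE 0.13, adjusted p = 0.000989 from limma). Idi1, isopentenyl diphosphate isomerase, rose by 1.91 (SE 0.19), and its other probe set by 1.60. Sqle, squalene epoxidase, rose by 1.73, more in scAPs (2.22) than in viAPs (1.24), with an interval of the depot difference of -1.75 to -0.21. Fdft1, squalene synthase, rose by 1.26 (1.24 on its other probe set) and Hsd17b7 by 1.06. Fdft1 had an adjusted p of 0.0159, and of 0.0519 to 0.0567 without HFD viAP replicate 5, HFD scAP replicate 7 or HFD scAP replicate 8.

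The other enzymes that rose changed less than 2-fold: Dhcr7 by 0.90, Sc5d by 0.86, Fdps by 0.77, Lss by 0.49 and Ebp by 0.30. The 5 that did not pass the test included 3 consecutive steps of the mevalonate branch, Mvk (0.06), Pmvk (-0.03) and Mvd (0.05), whose 95% intervals ran from -0.17 to 0.29, -0.25 to 0.19 and -0.20 to 0.29. The other 2 were Nsdhl (0.32, adjusted p = 0.0926) and Tm7sf2 (-0.16). Hmgcs1 before these steps and Idi1 after them had rises well outside these intervals.

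**Figure D4:**
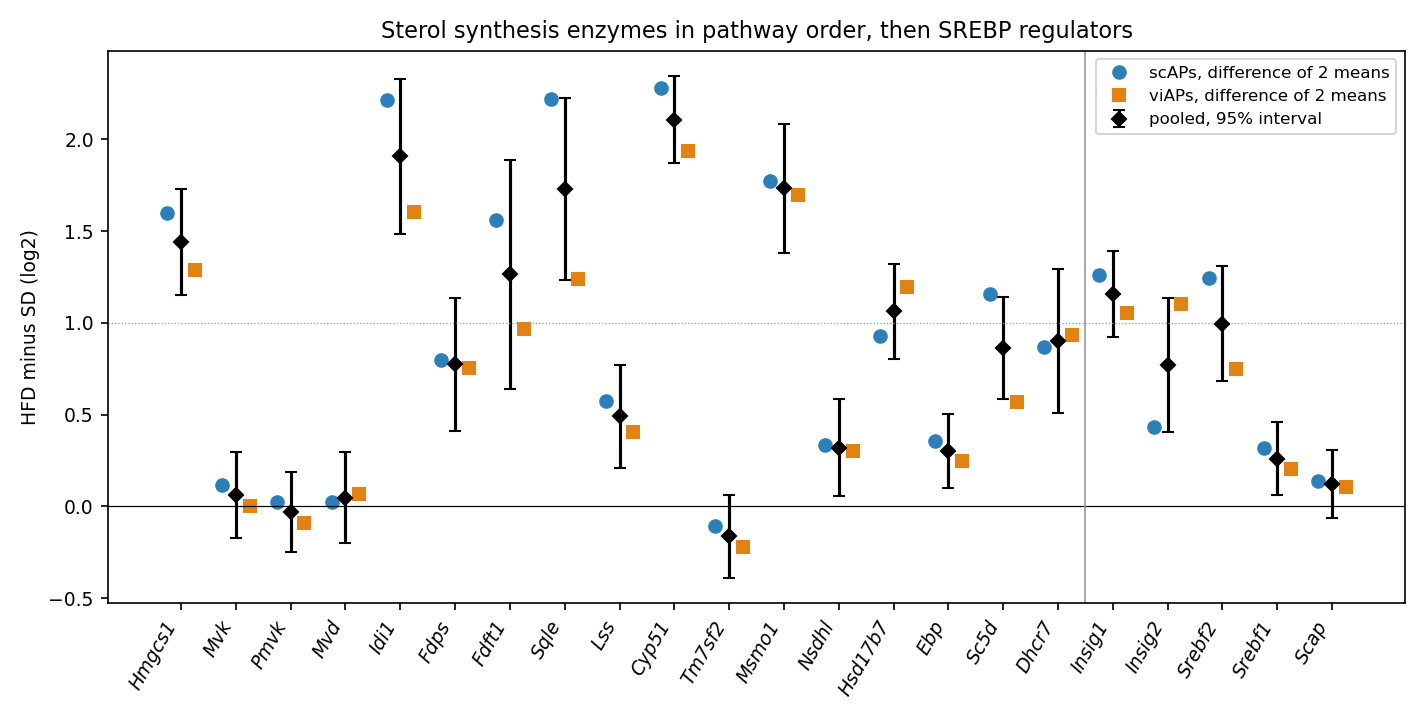
HFD minus SD (y axis, log2) of 17 sterol synthesis enzymes in pathway order and, right of the line, 5 regulators, as the pooled change with its 95% interval (diamonds) and the change in scAPs (circles) and viAPs (squares). Cyp51 rose by 2.11 and Idi1 by 1.91, while the intervals of Mvk, Pmvk, Mvd, Tm7sf2 and Scap include 0.

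Of the 13 measured genes of sterol uptake and SREBP regulation, 6 rose (46.2%, against 29.9% of genes above the level of 7) and 0 fell. Insig1, which retains SREBP in the endoplasmic reticulum and is itself an SREBP target, was at 9.09 and 8.94 in SD scAPs, 10.44 and 10.12 in HFD scAPs, 8.77 and 8.72 in SD viAPs and 9.85 and 9.74 in HFD viAPs. It rose by 1.16 (SE 0.11, adjusted p = 0.000989 from limma). Srebf2, the gene of SREBP2, rose by 1.00 (SE 0.14, adjusted p = 0.00284 from limma). Insig2 rose by 0.77, Npc1, a lysosomal cholesterol exporter, by 0.71, and Stard4 and the SREBP protease gene Mbtps1 by 0.59 each. Srebf1 (0.26, adjusted p = 0.0718) and Scap (0.12) did not pass. Of the 9 genes of sterol efflux and LXR targets 1 was higher (11.1%, against the same 29.9%), Ch25h (0.47). Without SD scAP replicate 2, SD viAP replicate 3 or any single HFD array, 0 were higher.

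Fatty acid synthesis rose less evenly. Of 19 genes measured, 9 were higher (47.4%, against 29.9% of genes past the level filter) and 0 lower, with a median change of 0.36. After the second quantile normalization 5 were higher with a median of 0.09. The desaturases led. Fads2, which begins the synthesis of long polyunsaturated fatty acids, was at 7.72 and 7.38 in SD scAPs, 9.03 and 8.68 in HFD scAPs, 8.50 and 7.52 in SD viAPs and 9.60 and 9.58 in HFD viAPs. It rose by 1.44 (SE 0.20, adjusted p = 0.00263 from limma). Scd2, a stearoyl-CoA desaturase, rose by 1.14, Fads1 by 1.09 and Fasn, fatty acid synthase, by 0.83. Fatty acid oxidation did not follow. Of 19 genes of oxidation, ketogenesis and PPAR targets 1 was higher (5.26%), Hadha (0.47), and 2 were lower (10.5%), Acot2 (-0.53) and Angptl4 (-0.93). Of genes past the level filter 29.9% were higher and 2.57% lower. The change of Angptl4, which inhibits lipoprotein lipase, was -1.60 in viAPs and -0.25 in scAPs, with an interval of the difference of -1.83 to -0.87. The 1 higher gene became 2 without SD scAP replicate 1 and 0 without SD scAP replicate 2, SD viAP replicate 3, either HFD viAP array or HFD scAP replicate 8. The 2 lower calls became 0 without HFD viAP replicate 5, HFD viAP replicate 6 or HFD scAP replicate 8, and 1 without either SD viAP array.

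The rise of Hmox1 was not a rise of the whole heme and iron list. Of its 16 measured genes 5 were higher (31.2%, near the 29.9% of genes past the level filter), Hmox1, the iron regulatory protein gene Aco1 (0.63), the heme exporter Flvcr1 (0.59, and 0.16 on its other probe set, which did not pass), the transferrin receptor Tfrc (0.46) and the iron transporter Slc11a2 (0.46). The adjusted p of the last 2 was 0.0302 and 0.0445, and 3 members were higher without SD scAP replicate 2, either SD viAP array, either HFD viAP array or HFD scAP replicate 7. The steps after Hmox1, biliverdin reductases Blvra (0.10) and Blvrb (0.03), and the ferritin chains Fth1 (-0.16) and Ftl1 (-0.03) did not pass. The constitutive Hmox2 had a change of -0.14 (adjusted p = 0.373).

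Of 24 genes of NRF2, glutathione and thioredoxin, 9 were higher (37.5%, against 29.9% of genes past the level filter) and 0 lower, and 5 after the second quantile normalization. Maff, a small MAF partner of NRF2, was at 6.74 and 7.38 in SD scAPs, 8.23 and 8.45 in HFD scAPs, 7.39 and 7.12 in SD viAPs and 8.42 and 8.40 in HFD viAPs. It rose by 1.21 (SE 0.14, adjusted p = 0.00154 from limma). Gclm and Gclc, the subunits of the enzyme that limits glutathione synthesis, rose by 1.03 and 0.96, and Bach1, the heme-sensing repressor of Hmox1, rose by 0.85.

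Of 23 heat shock proteins and chaperonins, 14 were higher (60.9%, against 29.9% of genes past the level filter) and 0 lower. Hspd1 rose by 0.88 (1.22 on its other probe set), Bag3 by 0.87, Hsp90aa1 by 0.85 and Hspa4 by 0.83. That count was 6 after the second quantile normalization. It was 7 without HFD viAP replicate 5, 8 without SD scAP replicate 2, and 9 without HFD viAP replicate 6 or HFD scAP replicate 8. All 23 genes passed the level filter, where the median gene changed by 0.25, and the list's median was 0.59. Of 27 genes of the unfolded protein and ATF4 response 10 were higher (37.0%, against the same 29.9%), led by the chaperones Hspa5 (0.67) and Dnajc3 (0.66), and 0 lower. That count was 2 after the second quantile normalization, 16 without SD scAP replicate 1, and 2 to 6 without SD scAP replicate 2 (4), SD viAP replicate 3 (5), SD viAP replicate 4 (6), HFD viAP replicate 5 (2) or HFD viAP replicate 6 (3).

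Of 19 genes of glycolysis and glucose uptake 6 were higher and 1 lower. The share higher, 31.6%, was near the 29.9% of genes past the level filter and above the 11.5% of all genes. The share lower, 5.26%, stood beside 2.57% of genes past the level filter and 5.27% of all genes. After the second quantile normalization 3 were higher. Hk2, the hexokinase that traps glucose in the cell, was at 8.75 and 9.0 in SD scAPs, 10.01 and 9.84 in HFD scAPs, 8.04 and 8.10 in SD viAPs and 10.18 and 10.27 in HFD viAPs. It rose by 1.60 (SE 0.20, adjusted p = 0.00196 from limma). The glucose transporter Slc2a1 rose by 1.04, and the glycolytic enzyme Pgk1 by 0.81. The 6 became 10 without SD scAP replicate 1, 3 without SD scAP replicate 2 and 2 without either HFD viAP array, and the 1 lower gene was not lower without either viAP array of either diet or HFD scAP replicate 7.

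Genes of the matrix around the cells also rose in the pooled test. The shared criteria were met by 5 basement membrane genes, 4 interstitial matrix genes and 2 matrix proteases and inhibitors. Of 20 basement membrane genes, 12 rose (60%, against 29.9% of genes past the level filter) and 0 fell. The list's median change was 0.57, against 0.25 for genes past the level filter, and 9 rose after the second quantile normalization. Lamb1, a laminin beta chain, was at 9.54 and 9.93 in SD scAPs, 11.17 and 10.86 in HFD scAPs, 10.38 and 9.79 in SD viAPs and 11.42 and 11.38 in HFD viAPs. It rose by 1.29 (SE 0.15, adjusted p = 0.00139 from limma). Col15a1 rose by 1.22, the laminin chain Lama2 by 1.19 and the collagen IV chain Col4a2 by 1.13. Endothelial cells also make basement membrane, and their part in this list was not tested. With the endothelial level as a covariate 12 were higher.

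Of 30 interstitial matrix genes 12 rose (40%, against 29.9% of genes past the level filter) and 0 fell. After the second quantile normalization 9 rose. Mfap4, a microfibril protein, rose by 1.32, the proteoglycan Vcan by 1.05, Fbln5, which assembles elastic fibres, by 1.05 and Spon2 by 1.02. Smoc2, a secreted matrix-associated protein, was at 9.79 and 8.92 in SD scAPs, 11.05 and 10.39 in HFD scAPs, 9.54 and 9.32 in SD viAPs and 10.69 and 10.62 in HFD viAPs. It rose by 1.29 (SE 0.20). Among 20 matrix proteases and inhibitors 7 were higher (35.0%, near the 29.9% of genes past the level filter), led by Adamts12 (1.14) and Adamts1 (1.02). The share lower was 5% (1 gene), beside 2.57% of genes past the level filter and 5.27% of all genes. After the second quantile normalization 3 were higher. The 7 became 3 without SD viAP replicate 3 or either HFD viAP array. They became 4 on leaving out SD scAP replicate 2, or else HFD scAP replicate 8. The 1 lower gene was the inhibitor Timp1 (-0.64), with 2 lower without SD viAP replicate 4 and 0 without any other single array but HFD viAP replicate 5.

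Of 29 genes of BMP, TGF-beta and YAP signalling, 15 rose (51.7%, against 29.9% of genes past the level filter) and 0 fell. After the second quantile normalization 8 rose. Smad7, the inhibitory SMAD that is itself induced by TGF-beta, was at 6.71 and 6.88 in SD scAPs, 8.04 and 7.96 in HFD scAPs, 6.52 and 6.55 in SD viAPs and 8.00 and 8.03 in HFD viAPs, so the HFD arrays of both depots reached nearly the same level. Its change was 1.34 (SE 0.10, adjusted p = 0.000388 from limma). Bmp2, a ligand, rose by 1.34, more in scAPs (1.84) than in viAPs (0.85), with an interval of the difference of -1.49 to -0.48. Ltbp4, which holds latent TGF-beta in the matrix, rose by 1.32.

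Thbs1, thrombospondin 1, which can activate latent TGF-beta, was at 9.13 and 9.65 in SD scAPs, 10.77 and 10.39 in HFD scAPs, 11.54 and 9.45 in SD viAPs and 12.63 and 12.33 in HFD viAPs. The SD viAP arrays lay more than 2 units apart. HFD minus SD was 1.59 (SE 0.38, adjusted p = 0.0212 from limma), it was 1.09 without SD viAP replicate 4, and the adjusted p was 0.0917, 0.0702 and 0.0557 without HFD viAP replicate 5, HFD viAP replicate 6 and HFD scAP replicate 7.

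**Figure D5:**
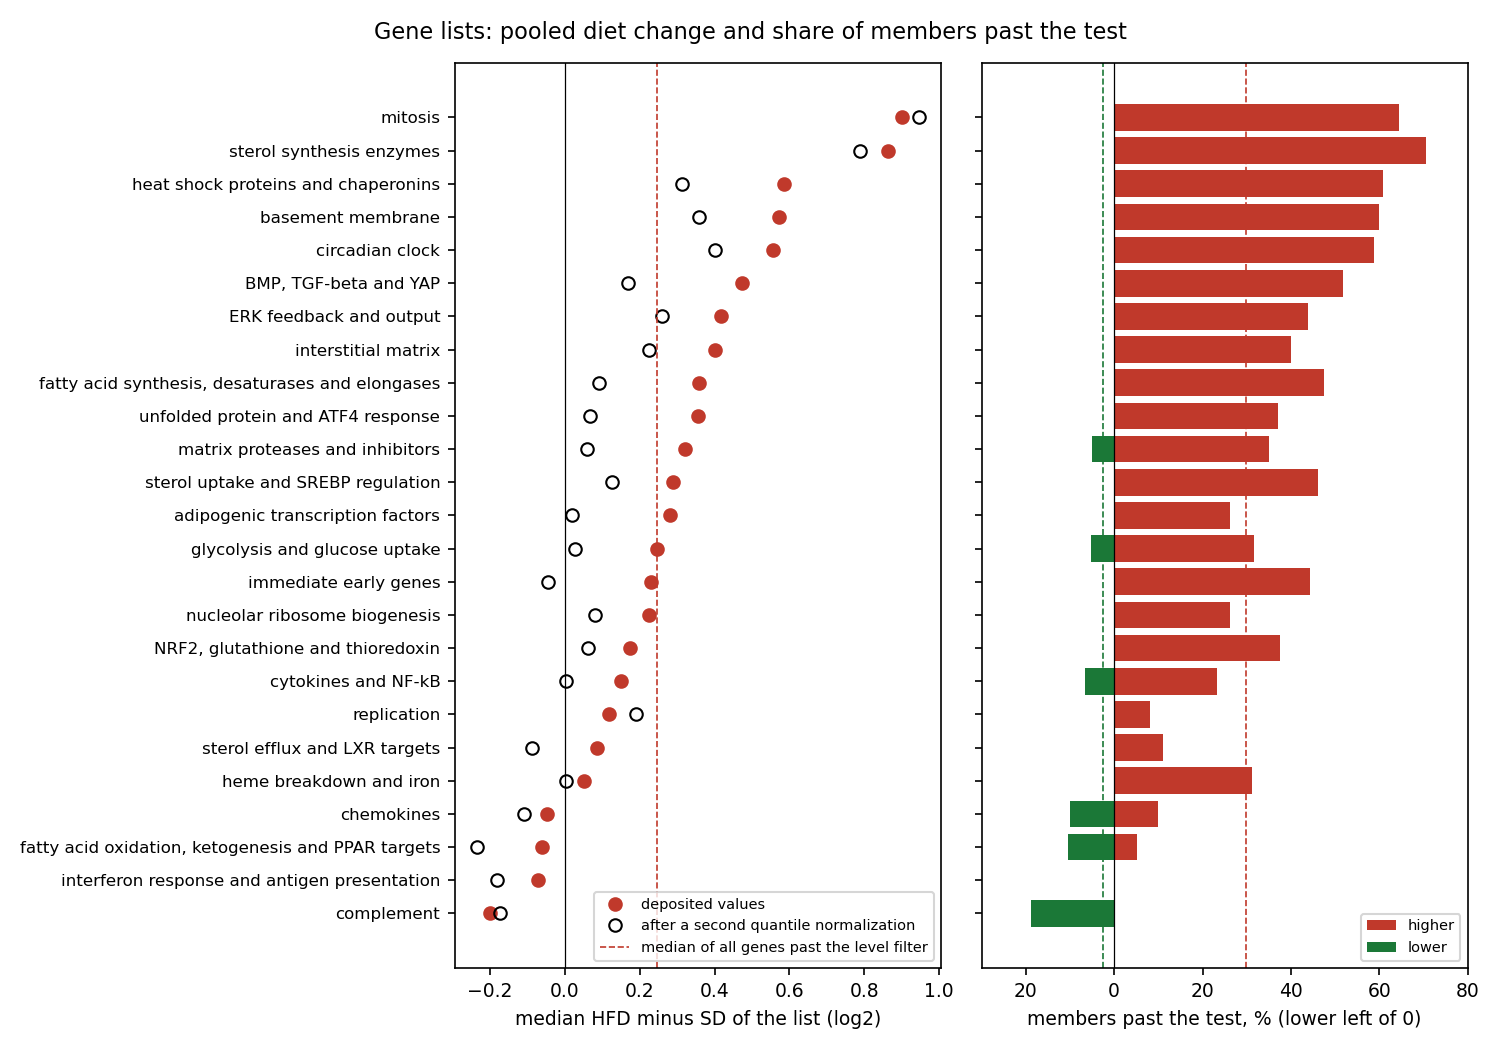
Left, median pooled change (x axis, log2) of 25 gene lists in the deposited values (filled) and after a second quantile normalization (open), with the median of all genes above the level of 7 (0.25) dashed. Right, percent of each list's members higher (red) or lower (green, left of 0) at an adjusted p under 0.05, with 29.9% and 2.57% of those genes dashed. Mitosis, sterol synthesis, heat shock, basement membrane and clock genes lie at the top, and complement at the bottom.

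Several other shared genes code for receptors or adhesion molecules. Vcam1, an adhesion molecule for leukocyte integrins, was at 8.30 and 8.78 in SD scAPs, 10.26 and 9.89 in HFD scAPs, 8.78 and 8.77 in SD viAPs and 10.19 and 10.01 in HFD viAPs. It rose by 1.43 (SE 0.13, adjusted p = 0.000989 from limma). P2ry2, a receptor for extracellular ATP and UTP, was at 6.43 and 7.09 in SD scAPs, 8.31 and 8.11 in HFD scAPs, 7.79 and 7.35 in SD viAPs and 9.08 and 9.12 in HFD viAPs, and rose by 1.49 (SE 0.15). In these genes all HFD arrays lay above the SD arrays of the same depot.

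Cmklr1, the receptor for the adipokine chemerin, rose by 1.43 (SE 0.21). Lrrc32, which carries latent TGF-beta on the cell surface, rose by 1.45 (SE 0.14), and Jam2, a junctional adhesion molecule, by 1.23 (SE 0.23, and 0.99 without SD viAP replicate 4). Taf4b, a subunit of the general transcription factor TFIID, rose by 1.69 (SE 0.16, adjusted p = 0.000989 from limma), from 6.60 to 7.53 on the SD arrays to 8.53 to 9.09 on the HFD arrays. Scg3, a secretory granule protein, rose by 1.54 (SE 0.31), with an adjusted p of 0.0113, and of 0.0573 without HFD viAP replicate 5.

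Signalling and clock genes moved by smaller steps. Of 16 genes of ERK feedback and output, 7 were higher (43.8%, against 29.9% of genes past the level filter) and 0 lower. They were led by the ERK pathway inhibitor Spry1 (1.27), the ERK phosphatase Dusp6 (1.04) and Spry2 (0.90). The 7 became 3 without HFD viAP replicate 5 or HFD scAP replicate 7 and 4 without HFD viAP replicate 6 or SD viAP replicate 4. Of 27 immediate early genes 12 were higher (44.4%, against the same 29.9%) and 0 lower, led by the small GTPase gene Rhob (1.21) and Klf6 (1.01). The list's median was 0.23, against 0.25 for the genes past the level filter. With the second quantile normalization the list's median passed to -0.04, and 4 were higher. Without HFD viAP replicate 5, 7 were higher.

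Of 17 circadian clock genes 10 were higher (58.8%, against 29.9% of genes past the level filter) and 0 lower, with a median of 0.56. The median was 0.40 after the second quantile normalization, with 6 higher, and 5 were higher without HFD viAP replicate 5. Bhlhe40 and Cry2, repressors of the clock, rose by 0.76 and 0.72, and Nr1d2 and Rora, which act on the same DNA element in opposite ways, by 0.75 and 0.72. The time of day at collection was not given in the sources used here.

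Mitosis genes rose in the pooled test, but unevenly. Of 31 genes 20 were higher (64.5%, against 11.5% of all genes) and 0 lower. The medians were 1.42 (viAPs) against 0.34 (scAPs), and 6 genes met the shared criteria. Mki67, the marker of cycling cells, was at 6.04 and 5.70 in SD scAPs, 6.74 and 6.61 in HFD scAPs, 6.13 and 6.15 in SD viAPs and 8.68 and 8.22 in HFD viAPs. Its change was 2.31 in viAPs and 0.81 in scAPs, with an interval of the difference of 0.91 to 2.09. Kif11, a spindle motor, and Prc1, which bundles spindle microtubules, had the same pattern, with 2.13 and 2.25 in viAPs and 0.89 and 0.66 in scAPs. The count was 6 without either HFD viAP array, 8 without SD viAP replicate 3, 12 without SD viAP replicate 4 and 13 without SD scAP replicate 2. Of the 31 genes 2 passed the level filter, which asks for a level above 7 on at least 3 arrays. A gene above 7 on the 2 HFD viAP arrays alone, such as Mki67, cannot pass it. Of 25 replication genes 2 were higher (8.00%, against 11.5% of all genes), Rrm1 (0.79) and Pcna (0.68). Leaving out single arrays gave 1 to 4, where SD scAP replicate 1 gave 4 and SD scAP replicate 2, either SD viAP array or either HFD viAP array gave 1.

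Few genes fell in both depots, and the largest falls were those of Cxcl13 and Car3. Cxcl13, a chemokine that attracts B cells, was at 12.29 and 11.89 in SD scAPs, 10.50 and 11.02 in HFD scAPs, 11.08 and 12.00 in SD viAPs and 7.38 and 7.74 in HFD viAPs. It fell by 2.66 over both depots (SE 0.47, adjusted p = 0.00627 from limma), with changes of -1.33 in scAPs and -3.98 in viAPs and an interval of the depot difference of -3.65 to -1.65. Car3, carbonic anhydrase 3, which is abundant in adipocytes, was at 10.71 and 11.15 in SD scAPs, 8.66 and 9.83 in HFD scAPs, 11.17 and 10.86 in SD viAPs and 7.40 and 7.77 in HFD viAPs. It fell by 2.56 (SE 0.36, adjusted p = 0.00273 from limma). For both genes both HFD arrays lay below both SD arrays in each depot, and the interval of the depot difference lay below 0.

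Tmem176a, a membrane protein, was lower on all 4 HFD arrays than on all 4 SD arrays. It was at 7.61 and 7.92 in SD scAPs, 6.55 and 6.51 in HFD scAPs, 7.88 and 7.81 in SD viAPs and 6.58 and 6.44 in HFD viAPs. Its change was -1.28 (SE 0.10, adjusted p = 0.000569 from limma), with -1.24 in scAPs and -1.33 in viAPs and an interval of the depot difference of -0.55 to 0.37. Prg4, which codes for the lubricating proteoglycan lubricin, fell by 1.55 (SE 0.30), from 10.52 and 9.61 to 8.57 and 8.94 in scAPs and from 8.01 and 9.38 to 7.09 and 6.73 in viAPs. Clec2d, a ligand of a natural killer cell receptor, fell by 1.16 (SE 0.15) and Sned1, a matrix protein, by 1.08 (SE 0.10).

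Plac8, C2, Cyp2f2 and Plin4 passed the same criteria with less margin. Their changes were -1.25, -1.11, -1.11 and -1.09, and their adjusted p-values 0.027, 0.0235, 0.0193 and 0.0202 from limma. Leaving out 1 array gave an adjusted p of 0.05 or more for 6 of 8 arrays for Plac8, 4 for C2, and 3 each for Cyp2f2 and Plin4, with the highest, 0.0759 to 0.0986, without HFD viAP replicate 5. C2, a complement protease, was 1 of 3 lower genes among 16 of complement (18.8%, against 5.27% of all genes), with C1ra (-0.45) and Cfi (-0.52). Of the complement genes 0 or 1 was lower without SD scAP replicate 2 or any single HFD array.

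The mature adipocyte markers held 5 genes that fell (31.2%, against 5.27% of all genes) and 1 that rose among 16. Those that fell were Car3, Plin4, Adipoq (-0.75), Retn (-0.73) and Plin1 (-0.47), and Pnpla2 rose by 0.31. The 5 became 2 without either HFD viAP array and 3 when SD scAP replicate 2, or else HFD scAP replicate 8, was left out. Pnpla2 was not higher without SD scAP replicate 2, SD viAP replicate 3 or any single HFD array. Adipoq, which defines adipocytes, had levels of 4.58 to 5.98 on the 8 arrays.

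The median change was -0.05 for the chemokines and 0.15 for the cytokine genes, while single members such as Cxcl13 and Il31ra moved by more than 2-fold. Of 20 chemokines 2 were higher (10%), Ccl11 (0.60) and Cxcl16 (0.43), and 2 lower (10%), Cxcl13 and Ccl20 (-0.38). Of genes past the level filter 29.9% were higher and 2.57% lower, and of all genes 11.5% and 5.27%. Of the chemokines 1 was higher without HFD viAP replicate 5, and 1 was lower without SD scAP replicate 2 or any single viAP array. Of 30 cytokine and NF-kB genes 7 were higher (23.3%) and 2 lower (6.67%), against the same shares of other genes. The cytokine Il17d rose by 1.1 and Lifr, the receptor for leukemia inhibitory factor, by 1.03, and Il31ra, a subunit of the interleukin 31 receptor, fell by 1.27. The 7 became 2 without either HFD viAP array and 4 on leaving out SD scAP replicate 2, or else HFD scAP replicate 7. The 2 became 1 without SD scAP replicate 1, SD viAP replicate 3 or any single HFD array, and 2 were higher after the second quantile normalization.

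Some called genes were not common to the depots. Of the 185 called, 15 did not meet the shared criteria: of the 14 higher ones, 8 changed under 1.5-fold in scAPs, 5 overlapped in scAPs and 1 overlapped in viAPs. Ect2, which sets the cleavage furrow in dividing cells, rose by 2.15 in viAPs, and its change in scAPs was 0.35 (interval of the difference 1.00 to 2.61). Trim30d, an immune gene of a family of near copies whose probes cannot always be told apart, met the criteria with a change of 2.69 in scAPs and 0.82 in viAPs, at levels under 6.5 on all arrays. Hk2, described above, was also shared but rose by 2.16 in viAPs and 1.05 in scAPs, with an interval of the difference of 0.66 to 1.56. Of the 185, 51 had an unadjusted p under 0.05 for the difference between depots, 44 of them with the larger change in viAPs.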

How the data were processed

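RNA of bead-purified APs was hybridized to 8 Affymetrix Mouse Gene 1.0 ST arrays, which read 1 colour. The values deposited by the authors are intensities, whole numbers on a linear scale, after RMA (background correction, quantile normalization at the probe level, and summary over probes). RMA and Affymetrix Expression Console 1.1 are named in the submitters' notes, and an R package in the methods of the study. Neither states the antilog or the rounding. Groups were taken from the labels.

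The deposited intensities were converted to log2 and not scaled further. Probe sets with exactly 1 gene symbol were fitted with limma 3.58.1 in R 4.3.3 (lmFit, eBayes, terms for depot and diet, 5 residual degrees of freedom), with Benjamini-Hochberg adjustment over all 21789. The depot difference came from a model with 1 mean per combination. Gene lists use the probe set with the highest mean for each gene, and members were counted at an adjusted p under 0.05 with any fold. The fit was tested on simulated data. Symbols were checked by Entrez ID against RefSeq (GRCm38.p6), which found 21698 probe sets and changed 0 symbols.

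Named genes were the shared genes with a mean level above 7 in the higher diet, without small non-coding RNAs, Gm genes, Rik clones and predicted loci, the 20 that rose and 10 that fell with the largest smaller-of-both-depots change. To these were added up to 4 members of each list past the test, all measured sterol and heme genes, Hmox1, the highest cell markers and 4 called genes with the largest depot difference. Other markers, Col8a1, Adamts1 and Mapk6 among promoters, and small nucleolar RNAs were chosen after their values were seen. The members and lists were chosen with earlier results of these data known. Alternatives were the filter of the paper's methods, other scalings and models, and leaving out each array.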

Additional observations from a re-analysis of the deposited data

Results flagged for a closer look

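The difference of the diet change between depots passed an adjusted p of 0.05 for 1 probe set, that of Col8a1, a short-chain collagen. Its level was 6.54 and 6.58 in SD scAPs, 6.09 and 6.27 in HFD scAPs, 6.60 and 6.73 in SD viAPs and 9.26 and 9.16 in HFD viAPs. The viAP change minus the scAP change was 2.93 (adjusted p = 0.00242 from limma), so it is no shared gene, and its pooled adjusted p was 0.143. Its level exceeded 7 on the HFD viAP arrays alone. At an unadjusted p under 0.05 the difference passed for 1600 probe sets.

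The 13767 probe sets with several gene symbols or none were left out of the report. The same pooled fit called 146 of them higher and 131 lower after HFD, against 166 and 19 of those with 1 symbol.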

How the results depend on the processing

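All 152 shared higher and 18 shared lower probe sets kept their direction under a second quantile normalization, and 51 and 16 of them were still shared. They had been chosen for a pooled change of at least 2-fold, so a kept direction was largely set by that choice. Probe sets called higher and lower numbered 67 and 40 after the second quantile normalization (shared 56 and 37), 376 and 39 with the endothelial covariate, 106 and 5 without moderation (5 shared and lower), and 2497 and 1134 with no minimum fold (shared 588 and 83). Lower calls were 10 without the depot term and 11 with log2 of the value plus 16, all of them shared in both settings. A minimum of 2-fold in each depot left 61 and 11 shared. Leaving out 1 array in turn gave 118 to 257 called higher, 12 to 36 called lower, 116 to 217 shared and higher, and 12 to 34 shared and lower, and 72 and 10 of the shared probe sets were shared in all 8 of these fits. The filter of the paper's methods tested 3076 probe sets and called 149 higher and 18 lower. The cause of these movements was not tested. Of the named genes' adjusted p-values, most were lost without moderation (59 genes), without HFD viAP replicate 5 (36) and without HFD viAP replicate 6 (30), and 0 called changes turned sign. No paired analysis was possible because the groups share no replicate numbers. Low intensities limit dim genes, such as Kif11 at 4.32 to 5.81 on the SD and HFD scAP arrays.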

Other observations

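Small nucleolar RNAs (snoRNAs), which guide chemical modification of ribosomal RNA, were kept out of the rule for named genes. Of the 56 Snord and Snora probe sets tested, 7 were called higher, all 7 shared, and 0 lower, against 0.762% of all probe sets called higher. Snord61 was at 8.03 and 6.85 in SD scAPs, 9.0 and 9.62 in HFD scAPs, 7.01 and 5.95 in SD viAPs and 8.94 and 8.67 in HFD viAPs, and rose by 2.10 (standard error 0.29, adjusted p = 0.00277 from limma). Snord33 rose by 1.61, Snord42a by 1.55, Snord49b by 1.27 and Snord16a by 1.76. Most snoRNAs lie in introns of host genes, and an array does not separate them from unspliced host RNA. Nop58, a core protein of the box C/D snoRNA particle, rose by 1.16 (standard error 0.13, adjusted p = 0.00138 from limma), with 1.16 in each depot.

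Among 25 genes of interferon response and antigen presentation, limma gave 0 higher and 0 lower at an adjusted p under 0.05, and 1 higher and 6 lower at an unadjusted p under 0.05, with a median change of -0.07. Leaving out SD viAP replicate 4 gave 3 higher, SD scAP replicate 1 gave 1 higher and 3 lower, and SD viAP replicate 3 gave 1 lower. After the second quantile normalization 5 were lower. Of 19 adipogenic transcription factors 5 were higher (26.3%, against 29.9% of genes past the level filter) and 0 lower, led by Tcf7l2 (0.52). After the second quantile normalization or without HFD viAP replicate 5, 0 were higher. Leaving out the other arrays gave 1 higher without SD scAP replicate 2, HFD viAP replicate 6 or HFD scAP replicate 8, and 2 without SD viAP replicate 3 or HFD scAP replicate 7. Of 23 nucleolar genes 6 were higher (26.1%, against the same 29.9%), and 3 were higher without either HFD viAP array.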
